A study of Rattus norvegicus with 27 samples.

Results

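Neuropeptide genes of motor neurons were followed as 7 of the 9769 genes on the array table, read by 9 of the 12913 probe sets tested. They were the probe sets that the platform annotation gives to 1 gene only, for 8 genes looked for: Calca (3 probe sets) and Calcb, which encode calcitonin gene-related peptide (CGRP), Vip (vasoactive intestinal peptide), Cck (cholecystokinin), Npy (neuropeptide Y), Gal (galanin) and Tac1 (substance P and neurokinin A), with 1 probe set each. Adcyap1, the gene of the peptide PACAP, had 0 such probe sets and was not analysed here. The cells were motor neurons of the sacral spinal cord of male Wistar rats, and 27 arrays were measured. Spi-21 (8 arrays) and Spi-60 (8 arrays) came 21 and 60 days after the cord was cut through at S2 and a short piece taken out. ShamC-21 (6 arrays) and ShamC-60 (5 arrays) came at the same days after a laminectomy that left the dura whole. All rats received the tracer Fluorogold into muscle and into the peritoneal cavity, and buprenorphine after the operation. Fluorescent neurons, 100 to 200 a sample by the sample labels and 50 to 200 by the design text, were laser-dissected, and their RNA was amplified in 2 rounds. Values are log2 signals, so a difference of 1 is a doubling.

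A neuropeptide is made as a longer precursor, cut by proprotein convertases, stored in dense core vesicles and released to act on receptors of the G protein-coupled kind. Motor neurons release acetylcholine as their fast transmitter and make CGRP beside it, which reaches the neuromuscular junction and acts on acetylcholine receptors there. Vip, Npy and Gal are known as peptide genes whose expression in sensory and motor neurons can change after nerve injury, and Cck and Tac1 encode peptides found widely in the spinal cord.

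Calca and Vip are among the genes whose promoters are known to respond to cyclic AMP, so the 250 bases before the start that a RefSeq promoter table gives for each are shown. They are from GRCr8, Vip at chr1:44470230-44470479 on the plus strand and Calca at chr1:178317530-178317779 on the minus strand. These starts lie inside the full span that RefSeq lists for the genes, which holds 248 of the 250 Vip bases and 59 of the 250 Calca bases. Capitals mark TGACG, the half-site of the cyclic AMP response element.
Vip: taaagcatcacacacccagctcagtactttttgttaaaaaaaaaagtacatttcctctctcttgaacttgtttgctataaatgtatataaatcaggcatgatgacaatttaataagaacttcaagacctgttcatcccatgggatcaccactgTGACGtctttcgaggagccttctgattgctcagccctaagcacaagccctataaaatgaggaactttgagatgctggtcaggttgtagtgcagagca
Calca: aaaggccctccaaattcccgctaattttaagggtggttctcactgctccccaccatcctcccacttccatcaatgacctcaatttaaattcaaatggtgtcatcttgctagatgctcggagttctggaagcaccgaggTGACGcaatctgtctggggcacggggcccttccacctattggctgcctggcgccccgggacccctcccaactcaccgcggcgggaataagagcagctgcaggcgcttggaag
TGACGTCA, TGACGTC and TGACG, each contained in the one before it, were searched on both strands. Vip held TGACGTC, found in 2.80% of 33469 rat promoters over the same length, with its first base 97 bases before the start in that table. Calca held TGACG, found in 18.2%, at 112 bases before the start, and of the other listed genes in the table Gal held it at 63 and Tac1 at 206, with 239 of the 250 Tac1 bases inside the gene span. TGACGTCA, found in 1.59%, was in none of the 6 promoters that matched. These are matches of letters and not evidence of binding.

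ShamC-60 replicate 4 stood apart from the other arrays. Its mean over the 9 measured genes of 11 motor neuron markers was 8.91, against 9.89 to 10.1 in the rest of ShamC-60, 9.99 to 10.3 in Spi-21, 10.1 to 10.3 in Spi-60 and 10.0 to 10.2 in ShamC-21. Gad1, which encodes an enzyme that makes GABA, was at 11.8 on it, against 6.83 to 8.43 in the rest of ShamC-60. The astrocyte gene Slc1a3 was at 11.9, against 7.22 to 9.76. The mean over 7 measured genes of 8 astrocyte markers was 9.67, inside the 8.68 to 9.83 of the rest of ShamC-60. The mean over 6 measured genes of 8 spinal interneuron markers was 7.22, against 6.05 to 6.64, and 6.30, against 5.88 to 6.28, over the 5 genes other than Gad1. Results are therefore given with and without it. Of the motor neuron markers, the neurofilament genes and peripherin were bright, with group means between 12.3 and 14.4. Group means were 10.7 to 11.2 for Slc5a7, 6.76 to 8.24 for Slc18a3 and 5.37 to 5.83 for Chrna4. Isl1 and Isl2, markers best known from the embryo, averaged between 5.72 and 6.16. Bcl6, listed for skeletal motor neurons, had a mean above 96.8% of all probe sets. Zeb2, listed for preganglionic autonomic neurons, had a mean above 24.5% of them. Which kinds of neuron the samples held was not tested. The 3' minus 5' difference of the beta-actin controls, a sign of RNA length, was 2.86 to 3.60 in Spi-21 against 1.97 to 2.65 in ShamC-21, and 2.75 to 3.77 in Spi-60 against 1.92 to 2.42 in ShamC-60. That of the GAPDH controls was 0.985 to 3.47 in Spi-21 against 2.65 to 3.26 in ShamC-21, with a lower Spi median (2.02 against 2.96), and 2.85 to 3.85 in Spi-60 against 2.31 to 2.92 in ShamC-60. Their part in the results below was not tested. In samples of this kind, fewer cells of a type and less RNA per cell cannot be told apart.

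Averaged over both days, 1 of the 9 probe sets was lower (Vip) and 1 higher (Cck) after transection at a limma adjusted p under 0.05. In that comparison 39.4% of all probe sets passed. Without ShamC-60 replicate 4, Calca 1370775_a_at (-0.92, limma adjusted p 0.000565) and Calcb (-0.45, 0.043) were lower too, where 35.9% of all passed. At 21 days the CGRP gene Calca (1 of 3 probe sets) and Calcb lay lower in every transected array than the sham mean. At that day both passed without ShamC-60 replicate 4 but not with all arrays. At 21 days 0 of the 9 probe sets were higher and 1 (Vip) was lower after transection at an adjusted p under 0.05 (limma), where 11.3% of all probe sets were higher and 11.2% lower. At 60 days 1 (Cck) was higher and 1 (Vip) was lower, where 10.2% of all were higher and 8.92% lower. The median difference of the 9 was -0.07 at both days, and that of all probe sets 0.01 at 21 days and 0.02 at 60 days. Without ShamC-60 replicate 4, 1 was higher (Cck) and 3 were lower (Vip, Calcb and Calca probe set 1370775_a_at) at 21 days, where 12% of all were higher and 12.6% lower. At 60 days without it, 1 was higher (Cck) and 1 lower (Calca 1370775_a_at), where 6.48% of all were higher and 5.43% lower.

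**Figure D1:**
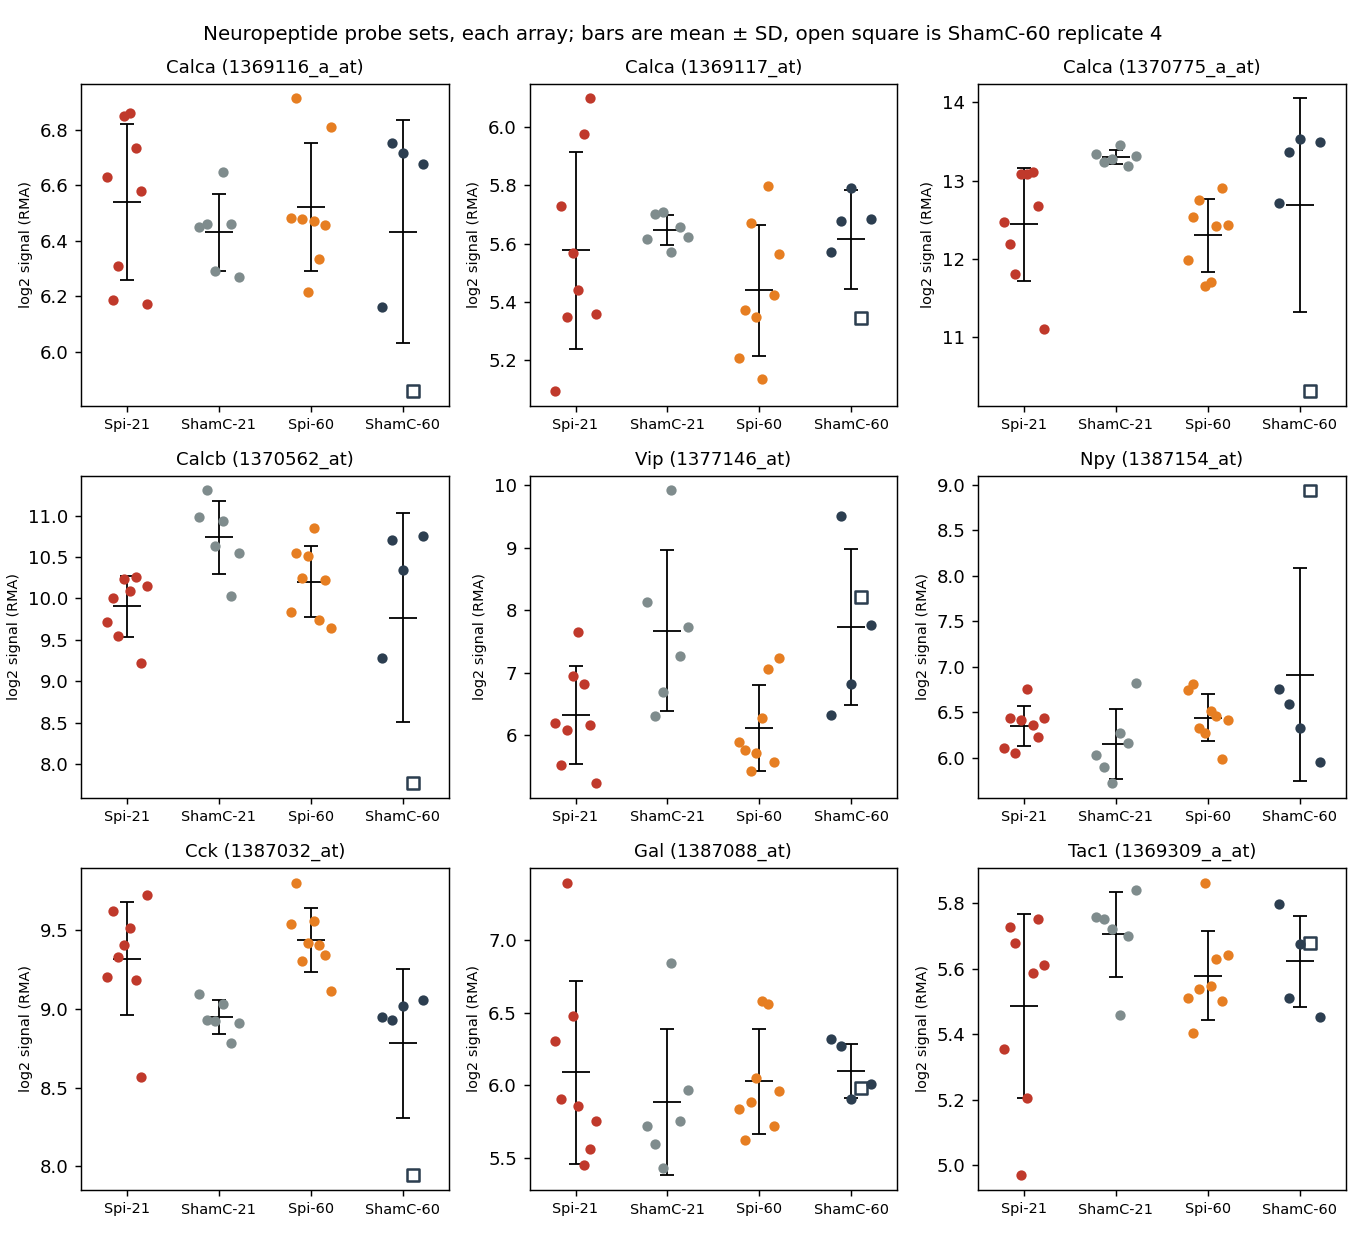
Log2 signal (RMA) of the neuropeptide probe sets on each of the 27 arrays (points) by group, Spi left of its sham at each day, with the mean and SD as bars and ShamC-60 replicate 4 as an open square. The Spi means of Vip (6.33 and 6.12) lie below those of their shams (7.67 and 7.73), those of Cck (9.32 and 9.44) above (8.95 and 8.78), and the open square is the lowest point of its group for Calca 1370775_a_at, Calcb and Cck and the highest for Npy.

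**Figure D2:**
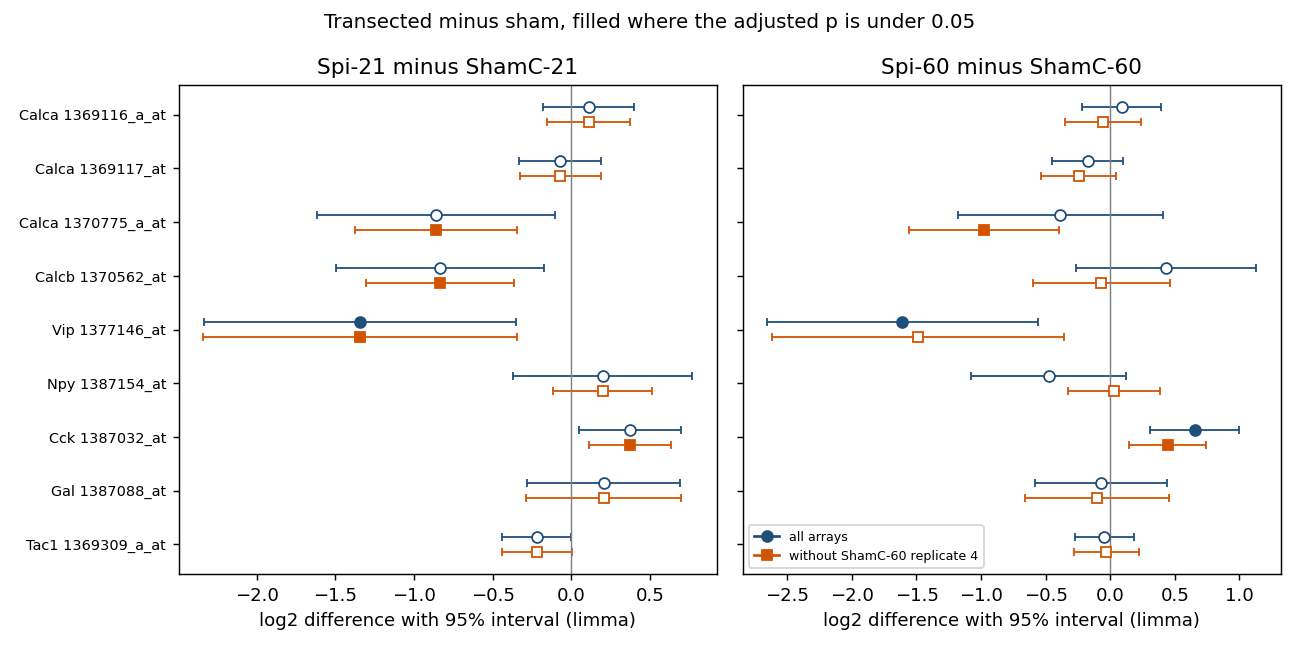
Log2 difference, transected minus sham, at 21 and 60 days with 95% intervals from limma, with and without ShamC-60 replicate 4; filled symbols have an adjusted p under 0.05. The Calca 1370775_a_at and Calcb differences at 21 days keep their size (-0.86 and -0.84) and gain narrower intervals when that array is left out, and the 60-day value of Calcb moves to -0.07, against 0.43 with all arrays.

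Vip encodes a vasoactive peptide that acts through receptors coupled to cyclic AMP. Its signal in Spi-21 had a lowest, median and highest value of 5.24, 6.18 and 7.66, against 6.31, 7.50 and 9.92 in ShamC-21. All 8 Spi-21 arrays lay under the ShamC-21 mean and 5 of 8 lay under every ShamC-21 array, so that the groups overlapped. In Spi-60 the lowest, median and highest values were 5.42, 5.83 and 7.24, and the ShamC-60 arrays read 6.32, 9.51, 6.83, 8.21 and 7.77. All 8 Spi-60 arrays lay under the ShamC-60 mean and 6 of 8 under every ShamC-60 array.

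Vip averaged 6.33 ± 0.785 in Spi-21 (SD, n = 8) and 7.67 ± 1.28 in ShamC-21 (SD, n = 6), a difference of -1.34 ± 0.484 (SE), or 2.54-fold lower, with a limma adjusted p of 0.0455. In Spi-60 it averaged 6.12 ± 0.684 (SD, n = 8) and in ShamC-60 7.73 ± 1.25 (SD, n = 5), a difference of -1.61 ± 0.511 (SE), or 3.05-fold lower, with a limma adjusted p of 0.0273. The exact permutation p, two-sided and unadjusted, was 0.03 at 21 days and 0.014 at 60 days, and 0.0364 at 60 days without ShamC-60 replicate 4. The Spi minus sham difference changed by -0.27 between days (limma adjusted p 0.965). Vip had a higher SD over the 27 arrays than 99.9% of all probe sets, and both sham groups spread more than the transected ones. Its mean over all arrays lay above 61.2% of all probe sets. In the transected groups its signal was dim. The medians of 6.18 in Spi-21 and 5.83 in Spi-60 lay under the array medians of 6.31 to 6.41.

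The call of Vip was sensitive to single arrays. At 21 days the difference lay between -1.62 and -0.895 with 1 array left out at a time, and it passed the threshold in 15 of 27 fits. The call ended without Spi-21 replicate 1, 2, 3, 7 or 8, Spi-60 replicate 1, 2 or 4, or ShamC-21 replicate 1, 4, 5 or 6. The smallest difference came without ShamC-21 replicate 4, the array at 9.92. At 60 days it passed in 25 of 27, and was -1.17 (limma adjusted p 0.11) without ShamC-60 replicate 2 and -1.49 (limma adjusted p 0.0761) without replicate 4. The mean of both days was -1.48 ± 0.352 (SE, limma adjusted p 0.00177), and -1.42 without ShamC-60 replicate 4 (limma adjusted p 0.00412), in a comparison in which 39.4% and 35.9% of all probe sets passed.

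Markers of spinal interneurons were measured beside Vip. The mean over 6 measured genes of 8 on that list was 5.56 to 6.42 in Spi-21 against 6.00 to 6.94 in ShamC-21, and 5.88 to 6.56 in Spi-60 against 6.05 to 7.22 in ShamC-60 (to 6.64 without replicate 4). Slc17a6, a glutamate carrier of vesicles, was lower at 21 days by -0.90 (limma adjusted p 0.0395), and Gad1 differed by -1.62 (limma adjusted p 0.0636). Slc32a1 differed by -0.32, and Tlx3, Slc6a5 and Gad2 by 0.35, 0.21 and 0.14, with limma adjusted p between 0.0994 and 0.552 for these 4. At 60 days Gad1, Slc17a6 and Slc32a1 differed by -1.05, -0.48 and -0.53, and Tlx3, Gad2 and Slc6a5 by 0.22, 0.06 and 0.004 (limma adjusted p 0.275 to 0.985). On the mean of both days Gad1 (-1.33) and Slc17a6 (-0.69) were lower and Tlx3 (0.29) higher (limma adjusted p 0.0226, 0.0179 and 0.0445). Slc32a1, Slc6a5 and Gad2 differed on that mean by -0.43, 0.11 and 0.10 (limma adjusted p 0.205, 0.304 and 0.249). Tlx3, Gad2 and Slc6a5 were dim, with means above 4.69%, 9.38% and 27.9% of all probe sets, and that of Slc32a1 lay above 47.8%. Over the 5 genes other than Gad1 the list mean was 5.57 to 6.02 in Spi-21 against 5.85 to 6.41 in ShamC-21. At 60 days it was 5.73 to 6.17 in Spi-60 against 5.88 to 6.30 in ShamC-60 (to 6.28 without replicate 4). The part of these genes in the Vip difference was not tested. The 3 genes whose log2 signal was most like that of Vip over the 27 arrays, out of 11871 single-gene probe sets, were Far1 (Pearson r 0.732), RT1-T24-4 (0.706) and Ppp1r1c (0.688). These correlations describe arrays that share groups.

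Calca probe set 1370775_a_at was bright, with a higher mean signal than 99.7% of all probe sets. Its Spi-21 arrays had a lowest, median and highest value of 11.11, 12.57 and 13.11, against 13.18, 13.29 and 13.45 in ShamC-21. All 8 Spi-21 arrays lay under every ShamC-21 array, and 2.22% of all probe sets had groups that parted in that direction. Spi-21 averaged 12.4 ± 0.716 (SD, n = 8) and ShamC-21 13.3 ± 0.0949 (SD, n = 6), a difference of -0.86 ± 0.368 (SE), or 1.82-fold lower. The limma adjusted p was 0.0898 with all arrays and 0.0147 without ShamC-60 replicate 4, which lies in another group but shares the estimate of the spread. The exact permutation p of 0.000666 is the smallest that the 3003 splits of 8 and 6 arrays can give, and uses only the 21-day arrays.

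At 60 days the Spi-60 arrays read 11.65 to 12.90, and the ShamC-60 arrays 12.71, 13.37, 13.53, 10.31 and 13.50. All 8 Spi-60 arrays lay above ShamC-60 replicate 4, and 6 of 8 lay under the lowest of the other 4. With all arrays the difference was -0.39 ± 0.389 (SE, limma adjusted p 0.513), and without replicate 4 it was -0.98 ± 0.285 (SE), or 1.97-fold lower, with a limma adjusted p of 0.0247. The exact permutation p was 0.485 with and 0.0121 without it. The difference between days was 0.48 (limma adjusted p 0.901), and -0.12 (limma adjusted p 0.987) without the array.

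The other 2 probe sets of Calca were dimmer, with means above 53.4% (1369116_a_at) and 20.1% (1369117_at) of all probe sets, and did not pass. Probe set 1369116_a_at read 6.17 to 6.86 in Spi-21 against 6.27 to 6.65 in ShamC-21, and 1369117_at read 5.10 to 6.10 against 5.57 to 5.71. Their differences at 21 days were 0.11 (limma adjusted p 0.606) and -0.07 (limma adjusted p 0.726), and at 60 days 0.09 and -0.17 (limma adjusted p 0.715 and 0.375). The annotation pairs these 2 with 1 transcript record and 1370775_a_at with another. Calca makes calcitonin and CGRP from alternative transcripts, and the sources used here do not say which form each probe set reads. Calca 1370775_a_at was most like Tes (r 0.805), Elavl2 (0.778) and Irx3 (0.773), and without ShamC-60 replicate 4 these values were 0.700, 0.707 and 0.625. Probe set 1369116_a_at was most like Nubp2 (0.720), Cct5 (0.693) and Mrpl37 (0.692), and 1369117_at like Mlf1 (0.732), Clcf1 (0.729) and Gins1 (0.716).

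Calcb, the neighbouring gene of the same peptide family, had a mean signal above 96.1% of all probe sets. In Spi-21 it had a lowest, median and highest value of 9.22, 10.04 and 10.26, against 10.03, 10.78 and 11.30 in ShamC-21. All 8 Spi-21 arrays lay under the ShamC-21 mean and 4 of 8 under every ShamC-21 array. Calcb averaged 9.90 ± 0.371 in Spi-21 (SD, n = 8) and 10.7 ± 0.440 in ShamC-21 (SD, n = 6), a difference of -0.84 ± 0.323 (SE), or 1.79-fold lower. The limma adjusted p was 0.0602 with all arrays and 0.0101 without ShamC-60 replicate 4, and the exact permutation p was 0.00333. It also passed without ShamC-21 replicate 5 (limma adjusted p 0.043) or ShamC-60 replicate 5 (0.0497).

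At 60 days Calcb was not called in either direction. The Spi-60 arrays read 9.65 to 10.85, and the ShamC-60 arrays 9.28, 10.70, 10.34, 7.77 and 10.75, so that the groups overlapped. The difference was 0.43 with all arrays (95% interval -0.27 to 1.13, limma adjusted p 0.388) and -0.07 without ShamC-60 replicate 4 (95% interval -0.60 to 0.47, limma adjusted p 0.894). The Spi minus sham difference was 1.27 ± 0.469 higher at 60 than at 21 days, with an unadjusted p of 0.0115 in limma and an adjusted p of 0.647, and 0.77 (limma adjusted p 0.856) without the array. Its most like genes were Hspb8 (r 0.845), S100a10 (0.786) and Hspb1 (0.777), and without ShamC-60 replicate 4 these values were 0.689, 0.564 and 0.523.

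Cck, whose peptide acts on the 2 cholecystokinin receptors, was higher after transection by 0.51 ± 0.115 (SE) on the mean of both days (limma adjusted p 0.00102). Without ShamC-60 replicate 4 it was higher by 0.41 (limma adjusted p 0.00191). In these comparisons 39.4% and 35.9% of all probe sets passed. The Spi-21 arrays had a lowest, median and highest value of 8.57, 9.37 and 9.72, against 8.79, 8.93 and 9.10 in ShamC-21. Of the 8 Spi-21 arrays 7 lay above every ShamC-21 array and replicate 7 lay below all 6. The Spi-60 arrays read 9.12 to 9.80, and the ShamC-60 arrays 8.95, 8.93, 9.02, 7.94 and 9.06. All 8 Spi-60 arrays lay above every ShamC-60 array, and 4.78% of all probe sets had groups that parted in that direction.

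Cck averaged 9.44 ± 0.204 in Spi-60 (SD, n = 8) and 8.78 ± 0.471 in ShamC-60 (SD, n = 5), a difference of 0.65 ± 0.167 (SE), or 1.57-fold higher, with a limma adjusted p of 0.0074. Without ShamC-60 replicate 4 it was 0.45 ± 0.145 (SE), or 1.36-fold higher, with a limma adjusted p of 0.0434. Without it the groups still parted, where 5.37% of all probe sets did so in that direction. The exact permutation p was 0.00155 with all arrays and 0.00404 without it, the smallest that 1287 and 495 splits can give. The call held in all 27 fits that left out 1 array. The mean of the measured motor neuron markers was 10.13 to 10.35 in Spi-60 against 9.89 to 10.10 in ShamC-60 without replicate 4. Of these, Slc18a3 read 7.63 to 8.88 in Spi-60 against 6.86 to 7.25 in ShamC-60 without replicate 4. With all arrays Slc18a3 (1.48), Prph (0.92), Nefh (0.38) and Chrna4 (0.35) were higher at 60 days, where 10.2% of all probe sets were. Their limma adjusted p was 0.000434, 0.0444, 0.0322 and 0.0261. Slc5a7, Isl1, Isl2, Nefm and Nefl did not pass (limma adjusted p 0.119 to 0.973). The part of these markers in the Cck difference was not tested.

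At 21 days Cck averaged 9.32 ± 0.359 in Spi-21 (SD, n = 8) and 8.95 ± 0.108 in ShamC-21 (SD, n = 6). The difference was 0.37 ± 0.158 (SE) with a limma adjusted p of 0.0884, and 0.0346 without ShamC-60 replicate 4 or 0.0163 without Spi-21 replicate 7. The exact permutation p was 0.0313. The Spi minus sham difference of Cck did not pass between days (0.28, limma adjusted p 0.841). Cck was most like Bag3 (r 0.896), Crebzf (0.886) and Slc45a1 (0.882), and without ShamC-60 replicate 4 these values were 0.834, 0.878 and 0.851.

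**Figure D3:**
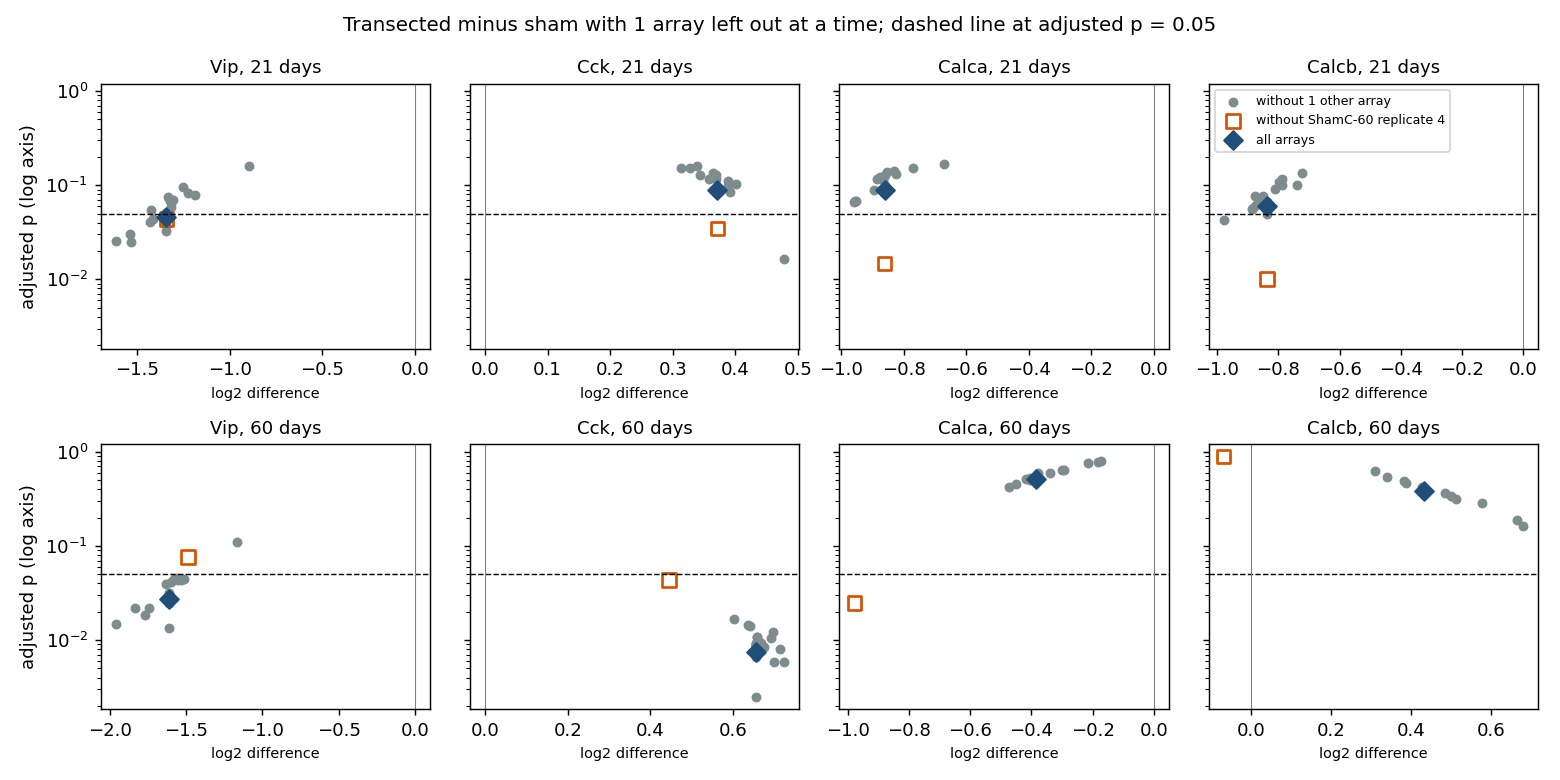
Log2 difference, transected minus sham (x), against the limma adjusted p on a log axis (y) for Vip, Calca 1370775_a_at, Calcb and Cck at 21 and 60 days with all arrays and with 1 array left out at a time. Cck at 60 days stays under the dashed line at 0.05 in all 27 fits, Vip at 21 days lies on both sides of it, and Calca 1370775_a_at passes at each day only without ShamC-60 replicate 4.

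Npy, a peptide of inhibitory spinal neurons, Gal, known to rise in injured peripheral neurons, and Tac1 did not pass at either day. Their mean signals lay above 52.1%, 39.5% and 21.5% of all probe sets. Gal and Tac1 were dim, with means of 6.03 and 5.59 under the array medians of 6.31 to 6.41. Npy read 6.05 to 6.76 in Spi-21 against 5.72 to 6.82 in ShamC-21 and 5.98 to 6.81 in Spi-60 against 5.95 to 8.94 in ShamC-60, where 8.94 was replicate 4. Its difference was 0.20 at 21 days (95% interval -0.37 to 0.77) and -0.47 at 60 days (95% interval -1.07 to 0.13), with limma adjusted p of 0.634 and 0.262. Without replicate 4 the 60-day difference was 0.03 (95% interval -0.32 to 0.39, limma adjusted p 0.92). Its most like genes with all arrays were Bcl11a (r 0.912), Gpc4 (0.884) and Hpca (0.877), and without that array the same genes had r of 0.595, 0.494 and 0.462.

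Gal read 5.45 to 7.39 in Spi-21 against 5.43 to 6.84 in ShamC-21, with a difference of 0.20 (95% interval -0.28 to 0.69, limma adjusted p 0.561). At 60 days it read 5.63 to 6.58 in Spi-60 against 5.91 to 6.32 in ShamC-60, with a difference of -0.07 (95% interval -0.58 to 0.44, limma adjusted p 0.87). Spi-21 replicates 1 to 4 averaged 6.52 and replicates 5 to 8 averaged 5.66. The 3' minus 5' difference of the GAPDH controls was 2.57 to 3.47 in the first 4 and 0.985 to 1.46 in the other 4. That of the beta-actin controls did not part them, at 2.89 to 3.53 and 2.86 to 3.60. The part of the controls' differences in the Gal values was not tested. Gal was most like Sprr1a (r 0.714), Rhd (0.690) and Bspry (0.673). Tac1 read 4.97 to 5.75 in Spi-21 against 5.46 to 5.84 in ShamC-21, and 5.41 to 5.86 in Spi-60 against 5.45 to 5.80 in ShamC-60. Its difference was -0.22 ± 0.107 (SE) at 21 days (limma adjusted p 0.136, exact permutation p 0.0946) and -0.04 at 60 days (limma adjusted p 0.819). Tac1 was most like St3gal3 (r 0.742), Clip1 (0.704) and Sbsn (0.655).

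Of the 9 probe sets, 0 passed in limma for the change of the transection difference between days, for Spi-60 minus Spi-21 or for ShamC-60 minus ShamC-21, where 0%, 0.0852% and 0% of all probe sets passed. At an unadjusted p under 0.05 the counts were 1, 0 and 2 of 9, where 905, 1706 and 513 of the 12913 probe sets were so, and the last was 0 of 9 without ShamC-60 replicate 4. From low to high mean, the groups stood in the order Spi-60, Spi-21, ShamC-21, ShamC-60 for Vip and ShamC-60, ShamC-21, Spi-21, Spi-60 for Cck. For Calca 1370775_a_at the order was Spi-60, Spi-21, ShamC-60, ShamC-21, and for Calcb ShamC-60, Spi-21, Spi-60, ShamC-21. In each of these orders all neighbouring groups overlapped in their values. Without ShamC-60 replicate 4 the ShamC-60 mean of Calcb was 10.27, above Spi-60 at 10.20 and no longer the lowest. The sham groups also changed places for Vip (ShamC-60 at 7.61, ShamC-21 at 7.67) and Cck (ShamC-60 at 8.99, ShamC-21 at 8.95).

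Receptors of the member peptides were measured for 16 of 21 listed genes, each by its probe set with the highest mean. At 21 days 0 passed in limma (2 had an unadjusted p under 0.05, as had 4700 of the 12913 probe sets), and at 60 days 1 was higher and 1 lower. The shares of all probe sets were 11.3% higher and 11.2% lower at 21 days and 10.2% and 8.92% at 60 days. The median difference was 0.10 at 21 days and 0.05 at 60 days, against 0.01 and 0.02 over all probe sets. Ramp2, which joins the calcitonin receptor-like receptor to form an adrenomedullin receptor, read 7.87 to 8.39 in Spi-60 against 6.29 to 7.52 in ShamC-60, with all 8 Spi-60 arrays above every sham array, as in 4.78% of all probe sets. The difference was 0.94 ± 0.198 (SE), or 1.92-fold higher, with a limma adjusted p of 0.00162, and 0.73 (limma adjusted p 0.0107) without ShamC-60 replicate 4. Ramp2 is also a gene of endothelial cells, whose mean over 2 measured genes of 6 was 5.84 to 6.34 in Spi-60 against 5.95 to 6.75 in ShamC-60, and its part in the Ramp2 difference was not tested. Calcrl itself differed by 0.03 at 21 days (limma adjusted p 0.864) and averaged 5.50 in both Spi-60 and ShamC-60. That is a dim signal, under the array medians of 6.31 to 6.41. Ramp1, the partner of Calcrl in the CGRP receptor, differed by -0.06 at 21 days and -0.39 at 60 days (limma adjusted p 0.81 and 0.0777). Npy1r, a receptor of neuropeptide Y, was lower at 60 days by -1.02 ± 0.334 (SE, limma adjusted p 0.0328). The call ended without Spi-60 replicate 1 or ShamC-60 replicate 1 or 4. Npy1r was dim, with means of 4.89 in Spi-60 and 5.90 in ShamC-60, under the array medians. Without ShamC-60 replicate 4, Npy5r passed at 21 days (-0.42, limma adjusted p 0.0408).

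Among 22 measured genes of 28 for peptide processing and dense core vesicles, 3 were higher and 2 lower at 21 days. The shares of all probe sets were 11.3% higher and 11.2% lower. At 60 days 4 were higher and 2 lower, where 10.2% and 8.92% of all were higher and lower. Without ShamC-60 replicate 4, 3 were higher and 1 lower at 60 days, where 6.48% and 5.43% of all were higher and lower. The median difference was -0.05 at 21 days and 0.05 at 60 days, against 0.01 and 0.02 over all. Pcsk1n, the inhibitor of the convertase that cuts many precursors, read 7.77 to 9.80 in Spi-21 against 7.13 to 7.39 in ShamC-21 and 8.53 to 9.60 in Spi-60 against 6.66 to 7.58 in ShamC-60. The lowest Spi array stood above the highest sham array at both days, as in 3.07% of all probe sets at 21 days and 4.78% at 60 days. The difference was 1.49 ± 0.263 (SE, limma adjusted p 0.000349) or 2.81-fold at 21 days and 1.87 ± 0.278 (SE, limma adjusted p 4.52e-05) or 3.65-fold at 60 days. Chgb, a granin of dense core vesicles, was lower, by -0.77 ± 0.191 (SE, limma adjusted p 0.00526) at 21 days and -1.24 ± 0.201 (SE, limma adjusted p 0.000136) or 2.36-fold at 60 days. It read 9.38 to 10.42 in Spi-60 against 10.73 to 12.01 in ShamC-60. All 8 Spi-60 arrays lay under every ShamC-60 array, where 3.42% of all probe sets had groups that parted in that direction. Cpd, a carboxypeptidase of the secretory pathway, was higher at both days (0.90, limma adjusted p 0.00119, and 0.59, limma adjusted p 0.0304), the second ended by leaving out any of 4 arrays. Syt7, a calcium sensor of vesicle release, was higher at 21 days (0.35, limma adjusted p 0.00501). Its other 2 probe sets differed by 0.32 and 0.08 at 21 days (limma adjusted p 0.0435 and 0.619) and by 0.32 and 0.46 at 60 days (limma adjusted p 0.0655 and 0.00448). Ptprn, a vesicle protein, was higher at 60 days by 0.75 ± 0.169 (SE, limma adjusted p 0.00298). Vgf (0.96), Qpct (-0.77) at 60 days and Ptprn2 (-0.25) at 21 days had a limma adjusted p of 0.0437, 0.0469 and 0.0463, which 9, 16 and 16 single arrays ended. Qpct and the brightest Syt7 probe set were dim, with group means of 4.84 to 5.69, under the array medians of 6.31 to 6.41.

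Of 60 other neuropeptide precursor genes 42 were measured. At 21 days 5 were higher and 1 lower, with a median difference of 0.11, and at 60 days 2 higher and 1 lower (1 and 0 without ShamC-60 replicate 4), with a median of 0.08. The shares of all probe sets called higher were 11.3% and 10.2%, and called lower 11.2% and 8.92%. Without ShamC-60 replicate 4 the 60-day shares were 6.48% higher and 5.43% lower. These counts are near or below the share over all probe sets. Crh, the precursor of corticotropin-releasing hormone, was lower at 21 days by -0.73 ± 0.171 (SE, limma adjusted p 0.00396), reading 4.92 to 5.98 in Spi-21 against 5.62 to 6.65 in ShamC-21. At 60 days it was lower by -0.52 (limma adjusted p 0.0422), a call that 7 single arrays ended. Nppb, of B-type natriuretic peptide, was higher at 60 days by 0.34 ± 0.0713 (SE, limma adjusted p 0.0017), with 8 of 8 arrays above every sham array, as in 4.78% of all probe sets. Agt, which encodes angiotensinogen and is made by astrocytes in the cord, was higher at 21 days by 0.90 ± 0.282 (SE, limma adjusted p 0.0225), and the call ended without ShamC-21 replicate 1 or 4. The mean over 7 measured genes of 8 astrocyte markers was 8.69 to 9.54 in Spi-21 against 8.17 to 9.26 in ShamC-21, with Aqp4 and Slc1a2 dim (means above 17.8% and 25.1% of all probe sets), and its part in the Agt difference was not tested. Npvf, Oxt, Iapp and Prlh were higher at 21 days by 0.41, 0.32, 0.31 and 0.22 (limma adjusted p 0.0162, 0.045, 0.0275 and 0.038). Ucn2 was higher at 60 days by 0.28 (limma adjusted p 0.02). Crh, Nppb, Npvf, Oxt, Iapp and Ucn2 were dim, with group means of 5.50 to 6.28, under the array medians of 6.31 to 6.41. Leaving out 1 array ended the call of Oxt for 15 arrays, of Prlh for 8, of Iapp for 4 and of Ucn2 for ShamC-60 replicates 1 and 4, and of Npvf for 0.

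**Figure D4:**
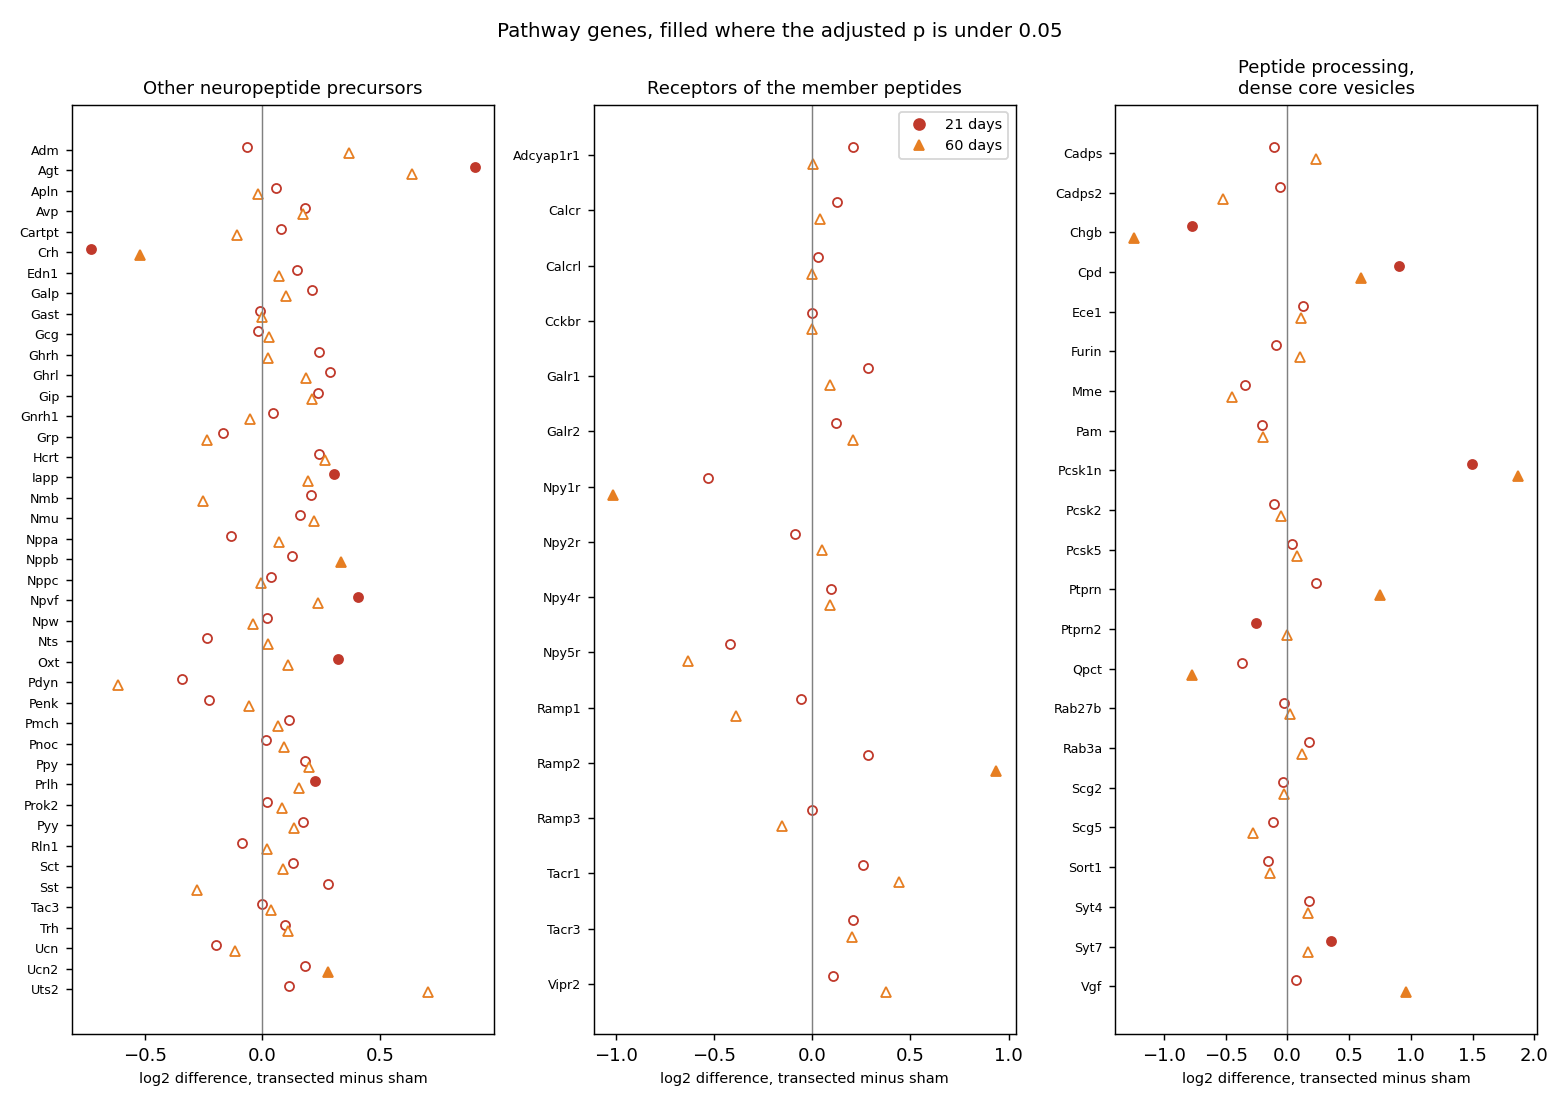
Log2 difference, transected minus sham, at 21 and 60 days for the measured genes of 3 lists (other neuropeptide precursors, receptors, processing and dense core vesicles), filled where the limma adjusted p is under 0.05. Pcsk1n is at 1.49 and 1.87, Chgb at -0.77 and -1.24, and Ramp2 at 0.94 at 60 days.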

How the data were processed

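The authors deposited 1 table of log2 probe set signals from 27 Affymetrix rat arrays (12919 probe sets), made by RMA per the submitters' processing notes; the sources used here give neither its version nor the rule for which probe sets entered. Medians of the arrays lay between 6.31 and 6.41, and 0 pairs of arrays were identical. Arrays have no count depth, and their number limits the precision. The 6 beta-actin and GAPDH control probe sets were left out. Differences were fitted with limma 3.58.1 (lmFit, eBayes) in R 4.3.3 over 4 groups without covariates, with p-values adjusted by Benjamini-Hochberg over 12913 probe sets and a threshold of 0.05. Each neuropeptide probe set also had a two-sided exact permutation test of its difference in each day (18 tests, and 9 more without ShamC-60 replicate 4, unadjusted) in Python 3.11.15 with scipy 1.17.1. The fit was tested on simulated data.

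Genes were named from the platform annotation where a probe set had 1 symbol. Every probe set of the 8 listed genes is named, as is any gene past the threshold at 21 or 60 days on the lists of receptors, processing genes and other precursors, by its probe set with the highest mean, with Calcrl and Ramp1 added as partners in the CGRP receptor after their values were seen. For likeness, the 3 genes with the highest Pearson r over all arrays are named. The genes and lists were chosen with earlier results of these data known. The labels number biological replicates but name no animal, so the p-values speak of spread among the samples, which may be partly technical. Same-numbered arrays deviated together in 9 of 35 pairs (correlation over 0.1, range -0.309 to 0.331), so the numbers were not taken to pair the samples. Alternatives left out arrays, changed the normalization, weights, block, filter or the arrays that shared the fit.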

Additional observations from a re-analysis of the deposited data

Results flagged for a closer look

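Of 36 groups of values tested over the 9 probe sets, 5 held an array whose gap to the nearest of the others was large for the group's range (Dixon's 95% limit), where chance flags about 1 in 20. Of these 3 were ShamC-60 replicate 4, at 10.3 for Calca 1370775_a_at (nearest 12.7), 8.94 for Npy (nearest 6.76) and 7.94 for Cck (nearest 8.93). Cck in Spi-21 replicate 7 was at 8.57 (nearest 9.18), and Tac1 in ShamC-21 replicate 4 was at 5.46 (nearest 5.70).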

How the results depend on the processing

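Outside the fits that left out 1 array, 126 of 156 alternative values kept direction and side of the threshold. Without ShamC-60 replicates 1 and 4, Calca 1370775_a_at was -0.86 at 21 days (limma adjusted p 0.0128) and -1.17 at 60 days (0.0222), Calcb -0.84 (0.00391) at 21 and -0.40 at 60, Cck 0.37 (0.037) at 21 and 0.43 (0.115, no longer called) at 60, and Npy 0.15, Tac1 0.033 and Calca 1369116_a_at -0.19 turned sign at 60 days. With array weights, Calca 1370775_a_at was -0.82 and -0.93, Calcb -0.76 and -0.14, Cck 0.45 at 21 days and Vip -1.31 (limma adjusted p 0.101) at 21 days, while Calca 1369116_a_at (-0.14) and Tac1 (0.0098) turned sign at 60 days. With the arrays of 1 day only, Calca 1370775_a_at (-0.86, limma adjusted p 0.0306) and Calcb (-0.84, 0.00866) passed at 21 days and Vip did not (-1.34, 0.0551). With the replicate block, at 21 days Cck passed (0.43, limma adjusted p 0.0467) and Vip did not (-1.29, 0.0619), and Gal at 60 days was 0.047. Vip at 21 days was also not called without Spi-21 replicates 1 to 4 (-1.20) or 5 to 8 (-1.48) or with quantile normalization (-1.31, limma adjusted p 0.051), and Cck passed without Spi-21 replicates 5 to 8 (0.44) and with quantile normalization (0.47). Without Spi-21 replicates 1 to 4, Gal (-0.23) and Calca 1369117_at (0.072) turned sign at 21 days. The cause was not tested. Over all probe sets 1335 were called at 21 days without Spi-21 replicates 1 to 4 and 1811 among those above the median signal, against 2917 with all, and 797 at 60 days without ShamC-60 replicates 1 and 4, against 2463 with all. That filter left out Calca 1369117_at, Tac1 and Gal.

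With 1 array left out at a time, the 21-day and 60-day ranges were -1.62 to -0.895 and -1.96 to -1.17 for Vip, 0.313 to 0.478 and 0.445 to 0.724 for Cck, -0.958 to -0.671 and -0.978 to -0.174 for Calca 1370775_a_at, and -0.979 to -0.724 and -0.067 to 0.679 for Calcb. They were 0.114 to 0.335 and -0.713 to 0.033 for Npy, 0.018 to 0.397 and -0.149 to -0.013 for Gal, and -0.269 to -0.146 and -0.086 to -0.00013 for Tac1. For Calca 1369116_a_at they were 0.064 to 0.162 and -0.055 to 0.168, and for Calca 1369117_at -0.144 to -0.00094 and -0.242 to -0.130. Counts of all probe sets were 2040 to 3177 and 1538 to 2760.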
